A study of Mus musculus with 6 samples.

Results

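The SR proteins, the hnRNPs, the CLK kinases and a small set of tissue-biased regulators of alternative splicing were examined in white adipose tissues (WATs) of control and Ntsr2 AKO mice. The members are all genes whose symbols begin with Srsf and a number or with Hnrnp, the kinases Clk1 to Clk4, and Nova1, Nova2, Rbfox1, Rbfox2, Mbnl1, Mbnl2, Celf1 and Celf2. They were further selected on their mean normalized count over the 6 mice, which had to be at least 10. All 43 genes with such names passed this minimum, out of 16157 that passed it and 21456 in the table. They comprise 11 SR proteins, 20 hnRNPs, 4 CLK kinases and 8 tissue-biased regulators. The member closest to the minimum was Srsf12, with a mean of 10.3, and no gene with a matching name fell below it.

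Control mice carried floxed Ntsr2 alleles (Ntsr2 flox/flox) without Cre, and Ntsr2 AKO mice carried the same alleles with Adipoq-cre (n = 3 each). Ntsr2 encodes a receptor for the peptide neurotensin. Both groups therefore share the floxed allele, and both were fed a chow diet, while age, sex and fat depot are not given for this experiment in the sources used here. The Adipoq promoter drives Cre in white and brown adipocytes, and because whole tissue was sequenced, the other cells of the WATs keep an intact Ntsr2. Each mouse yielded between 54085088 and 66098226 recovered reads. Ntsr2 itself had normalized counts of 83.8, 64.0 and 152.5 in control mice and 3.10, 8.29 and 0 in Ntsr2 AKO mice, without overlap. All 12 adipocyte markers were present in every mouse. Skeletal muscle genes differed widely between libraries, since the sum of 15 muscle markers was 1151, 631 and 3027620 in control mice 3, 4 and 5 and 1696, 98590 and 217970 in Ntsr2 AKO mice 3, 4 and 5. Of the 15 markers, 4 were at 0 in control mice 3 and 4, 7 in Ntsr2 AKO mouse 3, and none in the other libraries. In whole tissue, fewer cells of a type and less RNA per cell cannot be told apart.

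SR proteins bind exonic sequences of a pre-mRNA through RNA recognition motifs and recruit the spliceosome through a domain rich in arginine and serine, which in general favours inclusion of the exon. Kinases of the CLK and SRPK families phosphorylate that domain and thereby set the location and the activity of SR proteins. The hnRNPs coat nascent transcripts and often act against SR proteins, while NOVA, RBFOX, MBNL and CELF proteins read short RNA motifs and direct splicing programmes of neurons and muscle. Many of these genes restrain their own output by splicing in an exon or keeping an intron that brings an early stop codon, which sends the transcript to nonsense-mediated decay (NMD).

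That form of control can be read from the gene models, and 4 early stop codons of SR genes are shown because gene counts such as these sum the coding and the NMD transcripts. In GENCODE M21 (GRCm38, the same assembly as mm10), all 43 members were found and 24 of them (55.8%) had at least 1 annotated NMD transcript, against 26.9% of 13828 protein-coding genes tested. The share was 4 of 4 for the CLK kinases, 9 of 11 for the SR proteins, 10 of 20 for the hnRNPs and 1 of 8 for the tissue-biased regulators. A retained-intron transcript was annotated for 31 members (72.1%), against 56.0% of the protein-coding genes. These shares describe the annotation and not the transcripts present in these WATs. Each sequence below is 30 bases of the coding frame, 5′ to 3′ on the strand of the gene, and ends with the early stop codon in capitals.
Srsf3, chr17:29039458-29039487, plus strand: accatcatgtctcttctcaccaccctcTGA
Srsf4, chr4:131884361-131884390, plus strand: gtaacccggttgtctcatgccccagctTAG
Srsf9, chr5:115328399-115328428, plus strand: cctgggttggagattacggattcacagTAG
Srsf11, chr3:158023310-158023339, minus strand: gttgttcataaaacagcttttgaaagtTGA
In Srsf3, which encodes the smallest of the classical SR proteins, the stop lies 34 bases into an exon of 456 bases. A gene-level count cannot tell whether the share of transcripts with such an exon differed between genotypes.

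The log2 differences of most members between genotypes were small. Fold changes are given as log2 differences, Ntsr2 AKO minus control, on the scale of log2(normalized count + 1), and were tested with limma over all genes. No member passed the Benjamini-Hochberg adjusted threshold of 0.05 in limma, which 1 of 16157 genes passed (0.00619%), and the smallest adjusted p of a member was 0.499 (Nova1). edgeR called no member either (0% of all genes), whereas DESeq2 on the recovered reads called 1 member, Nova1, against 220 of 14652 genes (1.5%). At an unadjusted p under 0.05 in limma there were 3 members, namely Nova1, Hnrnpf and Hnrnpab, against 8.35% of all genes. There were 2 in edgeR, where 792 of 16157 genes were lower and 531 higher at that threshold. In DESeq2 there were 5, where 1032 of 16157 genes were lower and 648 higher. The log2 difference lay within 0.25 of no difference in 34 of the 43 members, against 8710 of the 16157 genes tested. The median over the members was -0.075, against -0.0071 over all genes tested, and it was 0.026 after quantile normalization and 0.022 when reads were scaled to the library total (CPM).

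**Figure D1:**
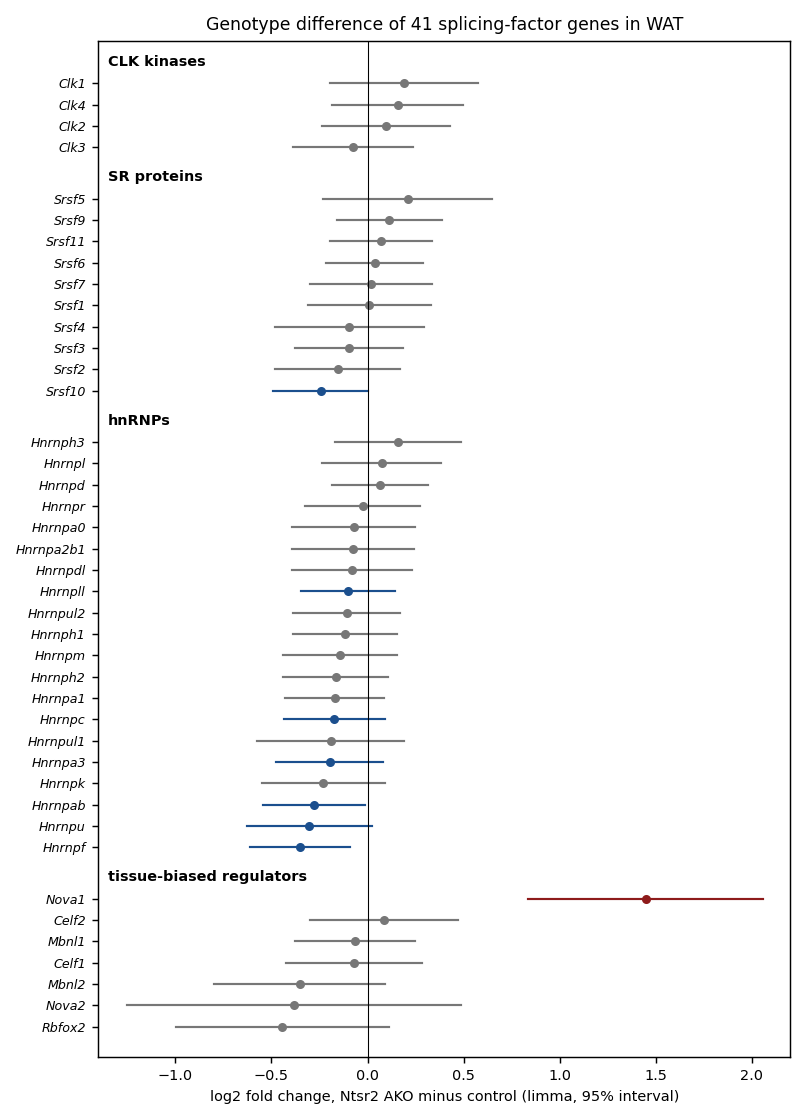
Log2 fold change (Ntsr2 AKO minus control) with its 95% interval from limma, for 41 members by family. Blue and dark red mark genes with no overlap between the 3 control and the 3 Ntsr2 AKO mice, lower and higher in Ntsr2 AKO; grey marks overlap. Rbfox1 and Srsf12 are left out because of their wide intervals. Nova1 stands at 1.45, and most hnRNPs lie to the left of 0.

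Among members whose groups did not overlap, the largest difference was that of Nova1, an RNA-binding protein known for directing alternative splicing in neurons. Its normalized counts were 815, 697 and 888 in control mice and 1546, 2154 and 3080 in Ntsr2 AKO mice, so the lowest Ntsr2 AKO mouse lay well above the highest control mouse. The control mean was 800.4 ± 96.3 and the Ntsr2 AKO mean 2260 ± 772 (SD, n = 3 each). The log2 difference was 1.45, with a standard error of 0.26 and a 95% interval of 0.84 to 2.06. With adjustment over all genes it did not pass in limma (adjusted p = 0.499) or edgeR (adjusted p = 0.569), and it passed in DESeq2 (adjusted p = 8.97e-05). The estimate stayed between 1.195 and 1.69 under all 17 alternatives, with adjusted p between 8.97e-05 (DESeq2) and 0.974 (limma without Ntsr2 AKO mouse 4). Among all genes tested, 6.82% were higher in Ntsr2 AKO mice without overlap, and Nova1 was the only member that was in the values as deposited. That count was 4 after quantile normalization and 3 with CPM. It ranged from 1 to 5 when each mouse was left out, with 5 without control mouse 3 or control mouse 4. Leaving out a mouse cannot make separate groups overlap, so that count could only stay or rise. The share over all genes was not taken for these alternatives, so these counts have no background beside them.

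Markers of other cell types that the WATs could hold were summed beside Nova1. The summed level of 13 neuron and Schwann cell markers was 8702, 6426 and 5735 in control mice and 6163, 7199 and 4945 in Ntsr2 AKO mice, with 1 to 3 of the 13 at 0 in each library. The sum of 9 fibroblast and progenitor markers, none of them at 0, was 232914, 371666 and 342308 in control mice and 281075, 271049 and 607723 in Ntsr2 AKO mice. Of these 9 markers 7 had a positive difference, as had 7921 of 16157 genes tested, and their median was 0.27. None of the 9 had an unadjusted p under 0.05 in limma. Ntsr2 AKO mouse 5, with the highest fibroblast sum, also had the highest Nova1. The other mice did not keep that order, since control mouse 4 had the next highest sum (371666) and the lowest Nova1 (697). Within each genotype Nova1 stood in the order of the muscle marker sum, and across genotypes control mouse 5, with the highest muscle sum of all, had a Nova1 count below those of the 3 Ntsr2 AKO mice. With a skeletal muscle score as a covariate the difference of Nova1 was 1.39. The part of fibroblast cells in the difference was not tested, and the muscle score is the only marker sum that entered a model.

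Nova2, the paralogue of Nova1 and likewise best known from neurons, lay the other way with a wide spread. It had normalized counts of 605, 584 and 373 in control mice and 520, 494 and 231 in Ntsr2 AKO mice, and the groups overlapped. The difference was -0.38 with an interval of -1.25 to 0.49 (limma adjusted p = 0.787), and mouse 5 was the lowest of each group. Per kilobase of the principal transcript, Nova1 averaged 111.9 ± 13.5 in control mice and 315.9 ± 107.9 with Ntsr2 AKO, and Nova2 averaged 62.2 ± 15.3 and 49.6 ± 19.1 (SD, n = 3). In control mice only Srsf12, at 3.4 ± 3.5, had a lower mean level per kilobase than these 2 genes.

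Nova1 spans chr12:46694517-46818929 on the minus strand of GRCm38, with 5 exons in its principal transcript and no annotated exon of another gene on the opposite strand. On the same strand its exons overlap those of Gm33869, for which no counts are given. Its promoter is printed beside that of Hnrnpab because both genes had an unadjusted p under 0.05, in opposite directions, and a single start in the table of RefSeq promoters (GRCm38.p6, 250 bases before to 50 after the start, 5′ to 3′ on the strand of the gene). Capitals mark the motifs searched on either strand, which were the CCAAT box, the TATA box (letters TATAAA), the E-box (letters CACGTG), the cAMP response element (letters TGACGTCA) and the GC box (letters GGGCGG).
Nova1, chr12:46818718-46819017, minus strand: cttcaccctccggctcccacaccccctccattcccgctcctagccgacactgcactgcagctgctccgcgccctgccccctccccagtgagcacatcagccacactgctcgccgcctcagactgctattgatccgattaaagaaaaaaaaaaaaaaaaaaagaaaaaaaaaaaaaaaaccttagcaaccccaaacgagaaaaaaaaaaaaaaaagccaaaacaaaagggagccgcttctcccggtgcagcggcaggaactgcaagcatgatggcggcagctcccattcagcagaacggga
Hnrnpab, chr11:51606832-51607131, minus strand: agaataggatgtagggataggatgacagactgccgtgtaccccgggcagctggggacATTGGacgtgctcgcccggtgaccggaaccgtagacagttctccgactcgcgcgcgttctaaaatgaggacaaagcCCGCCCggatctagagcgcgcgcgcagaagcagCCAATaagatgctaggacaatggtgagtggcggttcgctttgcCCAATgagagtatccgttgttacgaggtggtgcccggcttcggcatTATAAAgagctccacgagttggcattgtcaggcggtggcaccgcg
The Nova1 window held none of these letters and the Hnrnpab window held the CCAAT box, the TATA box and the GC box. In GENCODE, however, Nova1 begins at 46818929, which lies inside its window. Most of the Nova1 window is therefore within the gene as GENCODE gives it and not upstream of it. Over the members, 57 windows of 39 genes were found, and the GC box was present in 75.4% of them against 58.6% of 14460 windows of tested genes and 35.7% of all windows. The CCAAT box was present in 42.1% against 37.1% of tested genes and 37.4% of all, the TATA box in 10.5% against 7.74% and 13.6%, and the E-box in 12.3% against 9.47% and 7.15%. The cAMP response element was present in 1 window only, that of Clk4, which is 1.75% against 2.77% of tested genes and 1.79% of all. GC content had a median of 65.3% over the members' windows and 60.0% over those of tested genes.

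**Figure D2:**
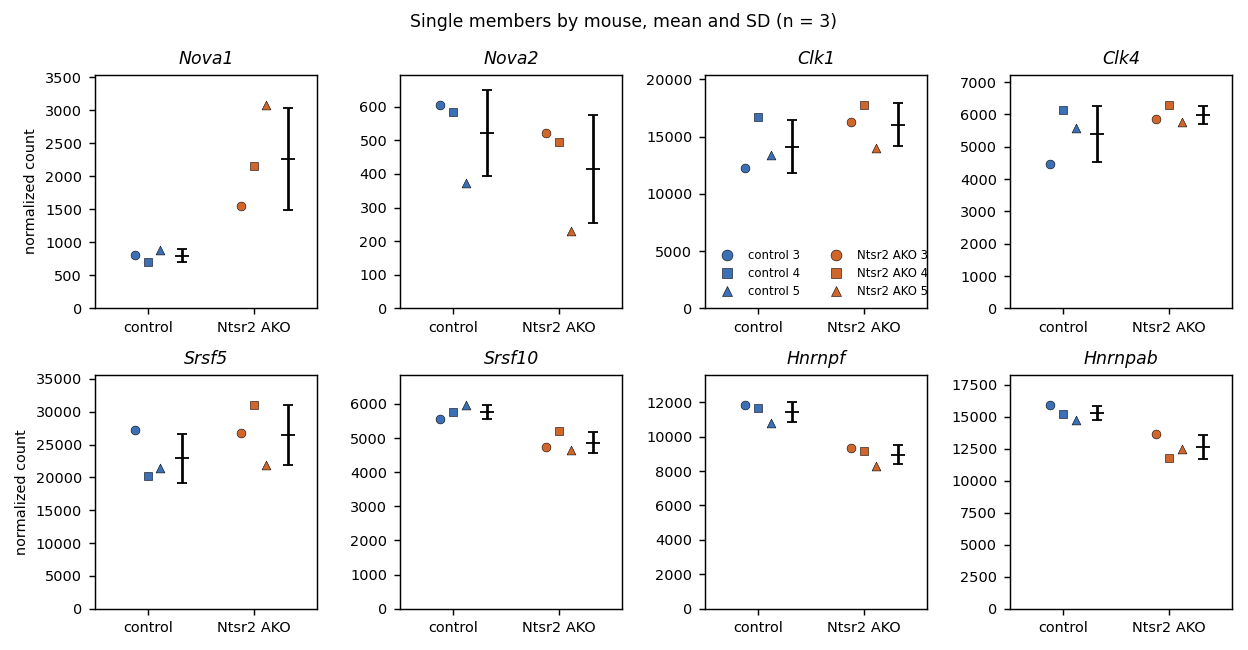
Normalized counts of 8 members in each control mouse (blue) and Ntsr2 AKO mouse (orange), with the group mean and SD beside the points (n = 3); each axis starts at 0. Nova1, Srsf10, Hnrnpf and Hnrnpab show no overlap between the groups, and Nova2, Clk1, Clk4 and Srsf5 overlap.

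The CLK kinases, which phosphorylate SR proteins in the nucleus, overlapped between genotypes in all 4 members. Clk1 had normalized counts of 12262, 16733 and 13366 in control mice and 16295, 17744 and 14025 in Ntsr2 AKO mice. Clk4, its close paralogue, had 4459, 6130 and 5593 in control mice and 5849, 6289 and 5776 in Ntsr2 AKO mice. In both genes control mouse 3 was the lowest and Ntsr2 AKO mouse 4 the highest. The differences were 0.19 for Clk1, with an interval of -0.20 to 0.57, and 0.16 for Clk4, with an interval of -0.18 to 0.50 (limma adjusted p = 0.769 and 0.780). Clk2 and Clk3 were closer still, at 0.095 and -0.075, with intervals of -0.24 to 0.43 and -0.39 to 0.24 (limma adjusted p = 0.869 and 0.892). The signs of the smallest 2 differences were not stable, since Clk2 was at -0.025 without control mouse 5 and Clk3 at 0.024 after quantile normalization and 0.022 with CPM.

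Levels of the 4 kinases can be set side by side only per length. In control mice Clk1 stood at 7862 ± 1297 normalized counts per kilobase of the principal transcript, Clk4 at 2768 ± 438, Clk3 at 1185 ± 161 and Clk2 at 890.9 ± 131.2 (SD, n = 3). Clk1 and Clk4 were each separated from their neighbours by more than these SDs, whereas Clk3 and Clk2 differed by about the sum of their SDs. The spread between control mice was larger than that between Ntsr2 AKO mice in all 4 kinases, with coefficients of variation in control of 16.5% for Clk1, 15.8% for Clk4, 14.7% for Clk2 and 13.6% for Clk3. The kinase sum was 21401, 28116 and 23659 in control mice and 27095, 28814 and 24545 in Ntsr2 AKO mice, with overlap. A single count mixes the coding transcript with the annotated NMD and retained-intron transcripts, of which Clk1 has 2 and 7 and Clk4 has 3 and 7.

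The other enzymes that act on SR proteins were given by a list of 17 tested kinases and phosphatases, including the SRPK family. None passed the adjusted threshold in limma. Of the 17, 15 had a negative difference (51% of all genes tested had one), and the median difference was -0.18. At an unadjusted p under 0.05, 1 was lower (5.27% of all genes). That gene was Top1, DNA topoisomerase I, which also phosphorylates SR proteins. Top1 had normalized counts of 6623, 7259 and 6599 in control mice and 5981, 5191 and 4972 in Ntsr2 AKO mice, a difference of -0.35 (limma adjusted p = 0.557). Ppp2ca, a catalytic subunit of protein phosphatase 2A, was next by p, at -0.27 (limma adjusted p = 0.612), also without overlap.

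The 11 SR proteins were divided in sign, with 4 lower and 7 higher in Ntsr2 AKO mice and a median difference of 0.018. None had an unadjusted p under 0.05. Their summed level was 98195, 88288 and 89077 in control mice and 97001, 100874 and 83383 in Ntsr2 AKO mice, which overlapped and averaged 102% of control. The median of the family was below 0 when control mouse 4, control mouse 5 or Ntsr2 AKO mouse 4 was left out, and the number of SR proteins with a negative difference ranged from 2 to 6 over the alternatives.

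Srsf10 was the only SR protein without overlap between the groups, where 8.16% of all genes were lower in Ntsr2 AKO mice without overlap. SRSF10 is an atypical family member that acts as a splicing repressor once it is dephosphorylated, for example during heat shock. Its normalized counts were 5559, 5768 and 5958 in control mice and 4747, 5221 and 4641 in Ntsr2 AKO mice. The Ntsr2 AKO mean was 84.5% of control, with a difference of -0.24 and an interval of -0.49 to 0.0034 (limma adjusted p = 0.599), and it did not pass in DESeq2 either.

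Srsf5, a classical SR protein and the highest of the family per length, lay the other way with a large spread. Its normalized counts were 27146, 20235 and 21371 in control mice and 26763, 30971 and 21831 in Ntsr2 AKO mice, so that control mouse 3 lay above 2 of the 3 Ntsr2 AKO mice. The difference was 0.21 with an interval of -0.23 to 0.65 (limma adjusted p = 0.776). Per kilobase it stood at 14616 ± 2364 in control mice (SD, n = 3), ahead of Srsf2 at 6737 ± 426.

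Srsf2 and Srsf1, which were among the first SR proteins described, also overlapped. Srsf2 had normalized counts of 13541, 11935 and 12902 in control mice and 12982, 11703 and 9933 in Ntsr2 AKO mice, a difference of -0.16 (limma adjusted p = 0.773). Srsf1 had 13328, 11940 and 11974 in control mice and 12886, 13946 and 10815 in Ntsr2 AKO mice, a difference of 0.0095 with an interval of -0.31 to 0.33. In both genes Ntsr2 AKO mouse 5 was the lowest of all. Srsf9 was at 0.11 and Srsf3 at -0.098 (limma adjusted p = 0.799 and 0.828), and Srsf6, Srsf7 and Srsf11 lay between 0.018 and 0.072. Srsf4 was at -0.095, with a control mean of 3628 normalized counts, and Gm12992, whose exons overlap it on the opposite strand, averaged 348 in control and 218 with Ntsr2 AKO.

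Srsf12 was barely detected, with normalized counts of 0, 20.6 and 9.59 in control mice and 7.23, 12.4 and 12.1 in Ntsr2 AKO mice. A single read was worth between 0.92 and 1.04 normalized counts, so these are very few reads. Its fitted difference of 0.89 depends on the mouse at 0, and it was -0.42 without control mouse 3.

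**Figure D3:**
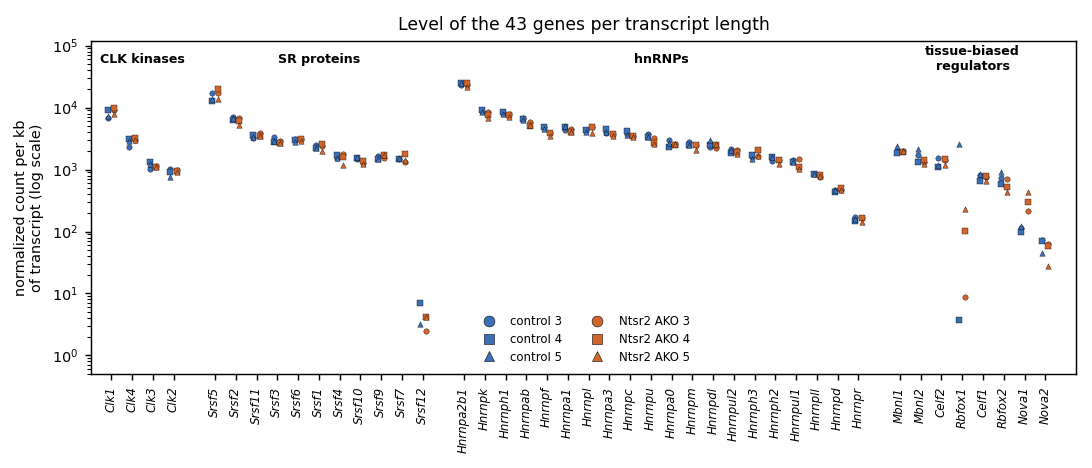
Normalized count per kilobase of the principal transcript (log scale) for all 43 members in each control mouse (blue) and Ntsr2 AKO mouse (orange); values of 0 are not drawn. Hnrnpa2b1, Srsf5 and Clk1 head their families, Rbfox1 spreads most between mice, and Srsf12 lies lowest.

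The hnRNPs had mostly small negative differences. Of the 20 members, 17 had a negative difference (85%, where 51% of all genes tested had one), with a median difference of -0.13 and a range of -0.35 to 0.16. The 3 with a positive difference were Hnrnph3, Hnrnpl and Hnrnpd. In 6 members the groups did not overlap, all of them lower in Ntsr2 AKO mice (8.16% over the whole table). An unadjusted p under 0.05 was reached by 2, both lower (5.27% over the whole table). None passed the adjusted threshold in limma, edgeR or DESeq2. Control mice 3, 4 and 5 had family sums of 255348, 255318 and 249177, and the Ntsr2 AKO sums were 239498, 232969 and 211575. These groups did not overlap, and the family sum averaged 90.02% of control. The sum over all genes tested averaged 93.3%, but its groups overlapped. For that sum control mouse 3, at 55795400, lay below every Ntsr2 AKO mouse (56427200, 56045300 and 56931900). Control mice 4 and 5 stood at 62305100 and 63391000.

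Scaling and the omission of single mice bore on the size of the hnRNP difference. With CPM 13 of the 20 hnRNPs were lower and their median was -0.034, and after quantile normalization the same number were lower with a median of -0.031. Among all members the number lower without overlap was 1 with CPM and 3 after quantile normalization, instead of 7. It ranged from 7 to 14 when each mouse was left out, an omission that cannot make separate groups overlap. The share over all genes was not taken for these alternatives. Over all genes the number with an unadjusted p under 0.05 was 852 lower and 497 higher in the values as deposited, 612 and 633 after quantile normalization, and 464 and 866 with CPM, which moved the median of all genes to 0.0896. Ntsr2 AKO mouse 5 was the lowest of the 6 mice in 13 of the 20 hnRNPs and the highest in none, and the hnRNP median was -0.093 without it. Without Ntsr2 AKO mouse 3 the hnRNP median moved the other way, to -0.17.

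**Figure D4:**
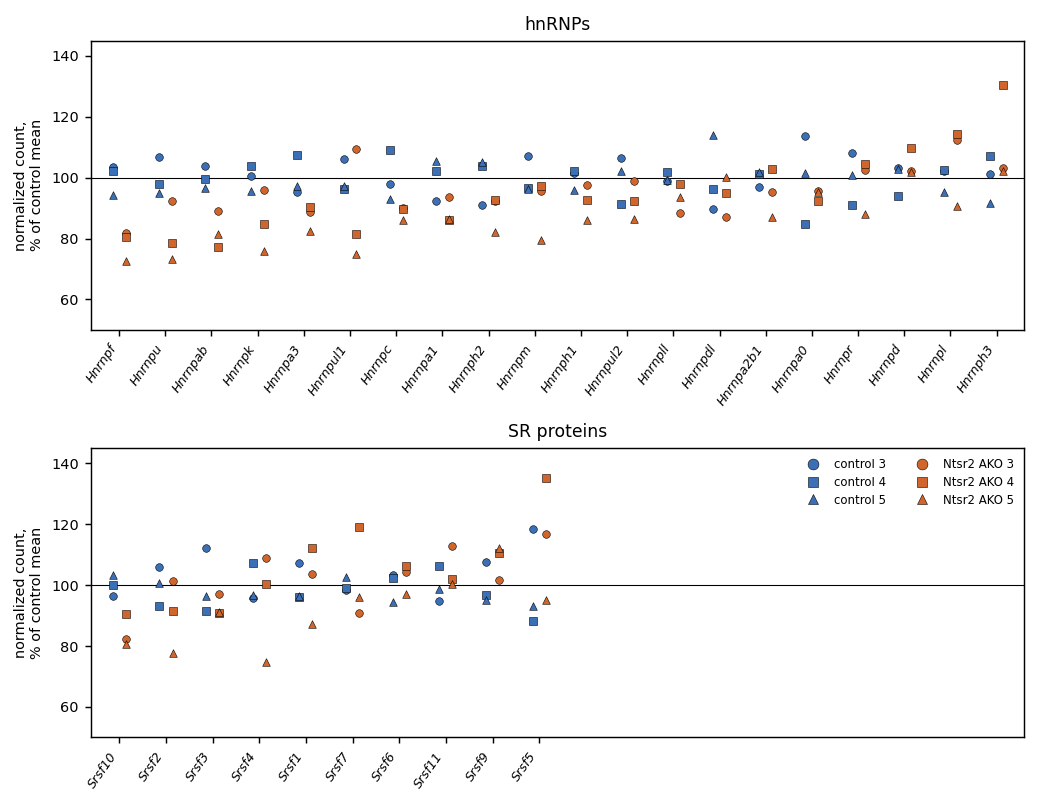
Normalized counts of the 20 hnRNPs (top) and 10 SR proteins (bottom, without Srsf12) in each mouse as a percentage of the control mean of the gene; marker shape gives the mouse number. The Ntsr2 AKO mice (orange) lie mostly below 100% among the hnRNPs, with mouse 5 often the lowest, and on both sides of it among the SR proteins.

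Hnrnpf, which binds G-rich RNA next to splice sites, had the smallest p of the family. Its normalized counts were 11819, 11685 and 10770 in control mice and 9361, 9181 and 8310 in Ntsr2 AKO mice. All 3 Ntsr2 AKO mice lay below all control mice, and the mean was 78.3% of control. The difference was -0.35 with a standard error of 0.11 and an interval of -0.61 to -0.093 (limma adjusted p = 0.523, DESeq2 adjusted p = 0.126). Its relatives Hnrnph1, Hnrnph2 and Hnrnph3, which bind similar sequences, were at -0.12, -0.17 and 0.16 with overlap.

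Hnrnpab, an A/B-type hnRNP, had normalized counts of 15903, 15248 and 14774 in control mice and 13632, 11816 and 12462 in Ntsr2 AKO mice. The groups did not overlap, and the difference was -0.28 with an interval of -0.55 to -0.012 (limma adjusted p = 0.590). Hnrnpu, a large nuclear scaffold protein that binds chromatin and RNA, had 28349, 26024 and 25227 in control mice and 24460, 20831 and 19461 in Ntsr2 AKO mice. It too did not overlap, at -0.30 with an interval of -0.63 to 0.023 (limma adjusted p = 0.608).

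The remaining members without overlap were Hnrnpa3, Hnrnpc and Hnrnpll, with smaller differences of -0.20, -0.17 and -0.10. HNRNPC packages nascent transcripts, and HNRNPLL is known for the splicing of CD45 in lymphocytes. Hnrnpa3 had normalized counts of 20395, 22958 and 20793 in control mice and 18991, 19302 and 17613 in Ntsr2 AKO mice. Hnrnpll was the steadiest member between control mice, with a coefficient of variation of 1.62%. Hnrnpk, a KH-domain protein that binds C-rich sequences, had 26359, 27286 and 25073 in control mice and 25213, 22262 and 19914 in Ntsr2 AKO mice, and control mouse 5 and Ntsr2 AKO mouse 3 made the groups overlap (difference -0.23, limma adjusted p = 0.677).

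Markers of other cell types are given beside the hnRNPs. Of 13 lymphocyte markers 10 had a negative difference (51% of all genes tested had one), with a median of -0.57. Their sum was 4117, 3122 and 1634 in control mice and 1901, 2042 and 2454 in Ntsr2 AKO mice. Of 9 macrophage markers 8 had a negative difference, with a median of -0.30, and their sum ranged from 26301 to 76883 in control and from 28912 to 62541 with Ntsr2 AKO. At an unadjusted p under 0.05 in limma, 1 lymphocyte marker and no macrophage marker was lower (5.27% of all genes). The lymphocyte and macrophage sums both overlapped between the groups, with at most 1 lymphocyte marker and no macrophage marker at 0 in a mouse. Endothelial markers had a median of -0.12 over 8 genes, and their sum ranged from 20838 to 33879 in control and from 20969 to 28983 with Ntsr2 AKO, with none at 0. Of 7 mesothelial markers only 3 reached the minimum mean, with a median of -1.64, and the sum of the 7 ranged from 165.0 to 470.4 in control and from 147.2 to 180.6 with Ntsr2 AKO, with 1 to 5 of them at 0 in each mouse. The part of these cells in the differences of the hnRNPs, Hnrnpll included, was not tested.

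Hnrnpa2b1, a nuclear RNA-binding protein that also sorts RNA into extracellular vesicles, was the highest of all members by count and per length. Its normalized counts were 40516, 42340 and 42642 in control mice and 39838, 43087 and 36484 in Ntsr2 AKO mice, with overlap. The difference was -0.075 with an interval of -0.39 to 0.24 (limma adjusted p = 0.893), and its sign was positive with CPM (0.022) and after quantile normalization (0.0089). Per kilobase it stood at 24209 ± 666 in control mice (SD, n = 3), ahead of Hnrnpk at 8835 ± 374 and Hnrnph1 at 8179 ± 286. The last 2 differed by about the sum of their SDs.

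Reads of a gene and of a partner on the opposite strand cannot be told apart without a strand-specific library, which is not stated here, and 15 members overlap an annotated exon on the opposite strand. For the hnRNPs above, the partner Phykpl of Hnrnpab averaged 888 normalized counts in control and 889 with Ntsr2 AKO. Cox20, the partner of Hnrnpu, averaged 702 and 871. 4933440N22Rik, a partner of Hnrnpf, averaged 38.0 and 47.2. For Gm43863, the other partner of Hnrnpf on the opposite strand, no counts are given. The partners with counts are small beside the members. The part of reads from partners in the differences of the hnRNPs was not tested. Several hnRNP genes also have processed pseudogenes of nearly the same sequence, and how reads that match more than 1 place were counted is not given in the sources used here.

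Among the tissue-biased regulators other than the NOVA genes, 1 library stood apart. Control mouse 5, with the highest muscle marker sum, was the highest of the 6 mice in Rbfox1, Rbfox2, Mbnl1, Mbnl2 and Celf1. The other mice did not keep the order of the muscle sum in all of these genes. Ntsr2 AKO mouse 5, with the next highest muscle sum (217970), was the lowest mouse in Rbfox2, Mbnl2 and Celf1. Control mouse 3, with a muscle sum of 1151, was next below control mouse 5 in Rbfox2 and Mbnl2. Rbfox1, a splicing regulator of neurons and striated muscle, had normalized counts of 0, 5.16 and 3658 in control mice and 12.4, 144 and 326 in Ntsr2 AKO mice. Its 4 highest libraries stood in the order of the muscle marker sum. The difference was 1.61 in limma, with an interval of -5.44 to 8.65 (adjusted p = 0.898), and -2.90 in edgeR, so that even the sign depended on the model.

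**Figure D5:**
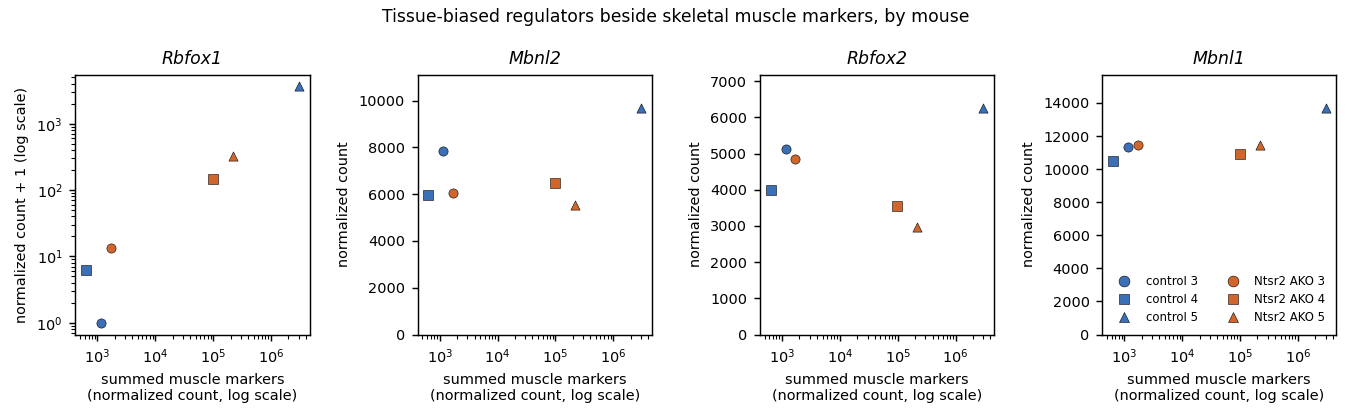
Normalized counts of Rbfox1 (plus 1, log scale), Mbnl2, Rbfox2 and Mbnl1 against the summed normalized count of 15 skeletal muscle markers (log scale) in each control mouse (blue) and Ntsr2 AKO mouse (orange). Control mouse 5, with a muscle sum of 3027620, is the highest mouse in all 4 panels.

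Rbfox2, the widely expressed relative of Rbfox1, had normalized counts of 5134, 4004 and 6250 in control mice and 4860, 3555 and 2960 in Ntsr2 AKO mice. The groups overlapped, and the difference was -0.44 with an interval of -0.998 to 0.11 (limma adjusted p = 0.643). Mbnl2, a muscleblind protein that promotes mature splicing patterns, had 7837, 5961 and 9661 in control mice and 6049, 6470 and 5541 in Ntsr2 AKO mice. It overlapped as well, at -0.35 with an interval of -0.80 to 0.093 (limma adjusted p = 0.643). Without control mouse 5 the differences were -0.29 for Rbfox2 and -0.19 for Mbnl2. With the muscle score as a covariate they were -0.46 and -0.40.

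Mbnl1, Celf1 and Celf2 were close between genotypes. MBNL and CELF proteins act in opposite directions on many exons of heart and skeletal muscle. Mbnl1 had normalized counts of 11346, 10512 and 13667 in control mice and 11449, 10900 and 11431 in Ntsr2 AKO mice, a difference of -0.064 that was 0.044 without control mouse 5. Celf1 was at -0.069 with an interval of -0.42 to 0.28, and Celf2 at 0.086 with an interval of -0.30 to 0.47 (limma adjusted p = 0.914 and 0.901). Per kilobase Mbnl1 led these genes in control mice at 2094 ± 289, followed by Mbnl2 at 1718 ± 406 and Celf2 at 1285 ± 235 (SD, n = 3), and these neighbours were within the sum of their SDs of each other.

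The wider splicing machinery was covered by lists of related genes. Of 34 other hnRNP-class RNA-binding proteins tested, 6 were lower and 1 higher at an unadjusted p under 0.05 (5.27% and 3.08% of all genes), and the median difference was -0.070. Pcbp1, a poly(C)-binding relative of Hnrnpk, had normalized counts of 9060, 8988 and 8441 in control mice and 7472, 6247 and 6363 in Ntsr2 AKO mice, a difference of -0.40 (limma adjusted p = 0.522). Ptbp1, the polypyrimidine tract-binding repressor of exons, had 10520, 10728 and 9504 in control mice and 9129, 6485 and 6316 in Ntsr2 AKO mice, a difference of -0.51 (limma adjusted p = 0.557). Neither gene overlapped between the groups.

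Of 60 core spliceosome genes, 6 were lower and 1 higher at the same unadjusted threshold (5.27% and 3.08% of all genes), with a median of -0.079. The smallest p values belonged to subunits of SF3b, the complex that recognises the branch point, with Sf3b4 at -0.59 and Sf3b3 at -0.47 (limma adjusted p = 0.522 for each). Sf3b4 had normalized counts of 1171, 1232 and 1077 in control mice and 926, 737 and 660 in Ntsr2 AKO mice, without overlap. Among 26 SR-related proteins none had an unadjusted p under 0.05, and the median was -0.013. Tra2a and Tra2b, splicing activators with arginine and serine-rich domains, were at 0.013 and -0.17.

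Genes of NMD and the exon junction complex act on transcripts with early stop codons. Among 17 of them, 1 was lower and 1 higher at that threshold (5.27% and 3.08% of all genes), and the median was -0.23. Magohb, an exon junction complex subunit, was at 0.50 and Eif4a3, the RNA helicase that anchors the complex, at -0.29 (limma adjusted p = 0.565 and 0.580). No gene of the 5 lists of splicing, SR-modifying and NMD genes passed the adjusted threshold in limma or DESeq2.

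Genes that respond to temperature and stress, to which SR proteins and CLK kinases are known to respond, had larger log2 differences than most members. The lists of these genes were drawn up with earlier results of these data known. Cirbp, the cold-inducible RNA-binding protein, had normalized counts of 2047, 1768 and 1593 in control mice and 2576, 2985 and 2978 in Ntsr2 AKO mice, without overlap, a difference of 0.66 (limma adjusted p = 0.499, DESeq2 adjusted p = 0.00855). Rbm3, the other cold-inducible protein, was at 0.018 with overlap. The sum of 12 cytosolic heat shock genes was 252711, 282525 and 261328 in control mice and 153490, 157294 and 123430 in Ntsr2 AKO mice. At an unadjusted p under 0.05, 10 of these 12 genes were lower (5.27% of all genes). None passed the adjusted threshold in limma, and 9 did in DESeq2 (1.5% of all genes). Hspb1, a small heat shock protein, was at -1.46 and Hsph1, a large one, at -1.45 (limma adjusted p = 0.0643 and 0.355).

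The immediate early genes, transcribed within minutes of a stimulus, had a median difference of -1.54 over 10 genes, 7 of which were lower at an unadjusted p under 0.05 (5.27% over the whole table). Past the adjusted threshold there was 1 of the 10 in limma and 4 in DESeq2 (0.00619% and 1.5% of all genes). Egr1 was the 1 gene of the table past the threshold in limma, with normalized counts of 2411, 2020 and 2627 in control mice and 513, 407 and 507 in Ntsr2 AKO mice (difference -2.30, limma adjusted p = 0.0442). Whether the heat shock and immediate early differences have a part in the smaller differences of the hnRNPs was not tested.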

How the data were processed

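RNA of WATs from 3 control and 3 Ntsr2 AKO mice was sequenced. The authors trimmed reads with Trimmomatic, aligned them with HISAT2, quantified genes with StringTie (versions not given in the sources used here) and deposited a signal for each gene, a normalized count equal to reads divided by a size factor; the submitters' processing notes name mm10. Division by the smallest step of each column gave whole reads for 100% of values (tolerance 0.01). Each difference rests on 3 mice per group, and genes with few reads, such as Srsf12, also carry counting error.

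Values were analysed as log2(normalized count + 1) for genes with a mean of at least 10, with limma 3.58.1 in R 4.3.3 (mean-variance trend, all 6 mice, no covariates, Benjamini-Hochberg adjustment over 16157 genes, threshold 0.05). edgeR 4.0.16 and DESeq2 1.42.0 on recovered reads were alternatives. Procedures were tested on simulated data. No 2 columns held the same values or differed as little as sampling noise.

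Members, lists and tests were chosen with earlier results of these data known. Named genes were the CLK kinases, the tissue-biased regulators, the 5 SR proteins and 5 hnRNPs with the smallest p and the 3 of each with the highest mean, Srsf12, Ntsr2, and up to 2 genes with the smallest p of each list. Other genes were named after their values were seen. The principal transcript used for levels per kilobase was taken from GENCODE M21.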

Additional observations from a re-analysis of the deposited data

How the results depend on the processing

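The 3 members with an unadjusted p under 0.05 became 1 after quantile normalization, 1 with scaling to the library total (CPM) and 5 with DESeq2. They ranged from 2 to 6 when each mouse was left out, with 6 without Ntsr2 AKO mouse 3. The background moved too. Over all genes 852 were lower and 497 higher in the main fit, 612 and 633 after quantile normalization, and 464 and 866 with CPM. The numbers were 1032 and 648 with DESeq2, and 1101 and 589 without Ntsr2 AKO mouse 3. Members past the adjusted threshold numbered 0 in limma and 1 in DESeq2, which was Nova1 (1.505), and 0 each time a mouse was left out. The median over the members was -0.075 and turned to 0.026 after quantile normalization and 0.022 with CPM, and it ranged from -0.104 to -0.051 when each mouse was left out. CPM and the muscle covariate were chosen after seeing the data.

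Other signs turned too, and the cause was not tested. After quantile normalization Celf1 was at 0.039, Clk3 at 0.024, Mbnl1 at 0.033, Srsf3 at 0.026 and Hnrnpa2b1 at 0.0089. With CPM Celf1 was at 0.028, Clk3 at 0.022, Mbnl1 at 0.033 and Hnrnpa2b1 at 0.022. Rbfox1 was at -2.90 in edgeR and -2.91 in DESeq2. When each mouse was left out in turn, the SR median ranged from -0.076 to 0.072, Celf1 from -0.19 to 0.018, Celf2 from -0.016 to 0.23, Clk2 from -0.025 to 0.19, Clk3 from -0.19 to 0.0041, Mbnl1 from -0.15 to 0.044, Rbfox1 from -0.80 to 5.11, and Srsf1 from -0.071 to 0.11. Srsf12 ranged from -0.42 to 1.28 over the 3 omissions (control mouse 3, control mouse 5 and Ntsr2 AKO mouse 3) in which it still reached the minimum mean. Without control mouse 3 Rbfox1 was at -0.80 and Srsf12 at -0.42, and without control mouse 5 Rbfox1 was at 5.11.

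Replicate numbers 3, 4 and 5 occur in both groups. Same-numbered mice deviated together for numbers 3 and 5 (correlations of 0.45 and 0.41) but not for number 4 (-0.24). Between mice of different numbers the correlations ranged from -0.52 to 0.26. Whether same-numbered mice share more than a number is not given in the sources used here, and these correlations cannot settle it. The replicate block left 0 members past the adjusted threshold and 2 with an unadjusted p under 0.05, where 866 of 16157 genes were lower and 437 higher.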
